A study of Mus musculus with 24 samples.

Results

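Zinc-handling genes were followed in MIN6 cells (insulin-secreting β cells of the mouse, established from an insulinoma) with vectors made to raise or inhibit miR-146a-5p. Of 17696 genes in the table, 9 were chosen by symbol, with earlier results of these data known. They include 2 metallothioneins (Mt1 and Mt2, called the metallothioneins below) and 3 members of the SLC30 family (Slc30a1, Slc30a5, Slc30a8). The other 4 belong to the SLC39 family (Slc39a6, Slc39a7, Slc39a10, Slc39a14). All 9 were measured in every one of the 24 mRNA-seq libraries, and none needed a filter on low values.

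The libraries fell into 6 groups of 4. Scr cells carried a lentiviral vector with a scrambled sequence, ZIP cells a vector with antisense miR-146a-5p, and OE cells a vector overexpressing miR-146a-5p. Each line was measured without and with 24 h of cytokines (Scr+Cy, ZIP+Cy, OE+Cy), a mix of IFNγ at 100.0 ng/ml, TNFα at 10 ng/ml and IL-1β at 5 ng/ml. All 6 groups had been selected with 1 µg/ml puromycin for 7 days and grown from single clones, and by the study's methods OE used another vector backbone and fluorescent reporter than Scr and ZIP. The line, the clone and, for OE, the backbone therefore cannot be told apart. Nothing in the labels says that the 4 libraries of a group came from separate cultures, so p-values measure the spread between these libraries, which may be technical. The titles also carry a code (P65, P66, P67 and P68) that moves with the replicate number in every group and whose meaning they do not give. The microRNA itself was not analysed here. By the study's qRT-PCR of untreated cells, its level was raised in OE and unchanged in ZIP against Scr. With cytokines, the study reported an increase over untreated cells of the same line that was largest in Scr, smaller in OE and smallest in ZIP.

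Metallothioneins are small cysteine-rich proteins that bind zinc and copper in the cytosol, and their transcription rises with free zinc through the factor MTF1, which binds metal response elements. SLC30 proteins move zinc out of the cytosol, either out of the cell or into organelles and vesicles, and SLC39 proteins move it into the cytosol from outside or from organelles. β cells hold zinc in their insulin granules, where SLC30A8 imports it and insulin is stored with it. The ZIP line takes its name from its vector and has no relation to the SLC39 family, whose proteins are also called ZIP.

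The median library held 30701023 assigned reads, the shallowest 26657792 and the deepest 37168232. Levels are CPM (assigned reads scaled to a common library size, with TMM factors), as mean ± SD of 4 libraries, and log2 fold changes come from 1 edgeR quasi-likelihood model of all 24 libraries. Rose and fell are used at a Benjamini-Hochberg adjusted p, over all 17696 genes, under 0.05, and called is used for the study's own rule, a fold change of at least 1.5 with an unadjusted p under 0.05. All 7 β cell markers (Ins1, Ins2, Iapp, Pdx1, Nkx6-1, Slc2a2 and Mafa) were detected in every group. Their summed level was 15675 to 21426 CPM in Scr, 24115 to 26257 CPM in ZIP and 37809 to 41560 CPM in OE. With cytokines it was 16263 to 17722 CPM in Scr+Cy, 21034 to 23586 CPM in ZIP+Cy and, in OE+Cy, 24150 to 31370 CPM. The 4 markers of other islet endocrine cells (Gcg, Sst, Ppy and Ghrl), mostly Gcg, which encodes glucagon, summed to 246 to 369 CPM in Scr, 101 to 305 CPM in ZIP and 45.96 to 56.04 CPM in OE. With cytokines they summed to 134 to 190 CPM in Scr+Cy, 78.4 to 218 CPM in ZIP+Cy and 9.09 to 34.7 CPM in OE+Cy. Markers of leukocytes, endothelium and acinar cells summed to at most 4.43 CPM. The 4 fibroblast markers summed to at most 3.17 CPM in ZIP+Cy, OE and OE+Cy, and stood apart in replicate 1 of the other groups, at 14.8 CPM in Scr replicate 1, 41.8 CPM in ZIP replicate 1 and 44.8 CPM in Scr+Cy replicate 1.

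The region before the annotated transcription start is printed for the metallothioneins, which share a position in the genome, and for Slc30a1, the exporter that moved with them in OE cells. RefSeq promoters were at hand for 6 of the 9 genes and not for Slc30a8, Slc39a6 and Slc39a14. On mm10, Mt2 spans chromosome 8 from 94172618 to 94173567 and Mt1 spans 94179089 to 94180327, both on the plus strand and 5521 bases apart, while Slc30a1 spans chromosome 1 from 191906781 to 191913247 on the plus strand. Each line below gives the 250 bases before the start on the plus strand of GRCm38.p6, with every match to the metal response element core in capitals. The core was searched on both strands as TGCACNC or TGCGCNC.
Mt2, chr8:94172368-94172617: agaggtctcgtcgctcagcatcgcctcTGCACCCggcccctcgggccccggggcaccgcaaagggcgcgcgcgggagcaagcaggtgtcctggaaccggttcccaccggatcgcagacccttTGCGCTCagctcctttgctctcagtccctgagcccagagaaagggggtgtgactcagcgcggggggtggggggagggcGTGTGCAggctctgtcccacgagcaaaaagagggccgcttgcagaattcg
Mt1, chr8:94178839-94179088: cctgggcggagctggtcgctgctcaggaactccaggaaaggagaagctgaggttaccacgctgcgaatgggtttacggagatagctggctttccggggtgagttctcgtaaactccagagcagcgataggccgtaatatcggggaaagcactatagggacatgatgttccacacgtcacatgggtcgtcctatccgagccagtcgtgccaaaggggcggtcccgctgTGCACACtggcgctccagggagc
Slc30a1, chr1:191906531-191906780: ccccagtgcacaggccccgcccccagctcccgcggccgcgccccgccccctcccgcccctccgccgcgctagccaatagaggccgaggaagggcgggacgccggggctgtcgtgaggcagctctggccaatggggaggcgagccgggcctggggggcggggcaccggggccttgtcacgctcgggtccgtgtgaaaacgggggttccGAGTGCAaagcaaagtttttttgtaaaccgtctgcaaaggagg
Mt2 held 3 matches, starting 223, 128 and 50 bases before the annotated start of transcription, and Mt1 held 1, starting 23 bases before it. Bases after the annotated start were not searched, so the matches of a gene may not be complete. The 1 match of Mt1 and the 3 of Mt2 hold for these windows alone and do not compare the 2 genes. Slc30a1 and Slc30a5 held 1 match each, starting 43 and 48 bases before the start, and Slc39a7 and Slc39a10 held none in these windows. Among 32851 RefSeq promoters of the same length, 21.4% held at least 1 match, 5.17% at least 2 and 1.26% at least 3. A match is a description of the sequence and not a bound site.

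The sequence that the lines were built around is the mature miR-146a-5p (chr11:43374435-43374456, GRCm38.p6, minus strand), printed with its seed, bases 2 to 8, in capitals.
mmu-miR-146a-5p: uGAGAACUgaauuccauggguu
The complementary site AGTTCTC was absent from the longest annotated 3′ UTR of each of the 9 genes. Of 15196 genes with an annotated 3′ UTR, 11.5% held such a site. These UTRs were between 134 bases (Mt1) and 3492 bases (Slc30a1) long for the 9 genes, against a median of 1036 bases.

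Compared between genes per kilobase of transcript, the metallothioneins were the most abundant of the 9 in Scr cells. Mt1 stood at 872 ± 178 CPM per kb and Mt2 at 732 ± 114 CPM per kb, which overlapped within their spread. Slc39a7, an importer of the endoplasmic reticulum and Golgi, followed at 119.6 ± 8.10 CPM per kb. Slc39a6, a plasma membrane importer, had 49.5 ± 1.91 CPM per kb, close to Slc30a5, which fills the early secretory pathway with zinc, at 44.8 ± 2.62 CPM per kb. Slc39a14 at 13.2 ± 1.12 CPM per kb, Slc30a8 at 11.1 ± 4.68 CPM per kb and Slc30a1 at 10.6 ± 0.768 CPM per kb were lower, and the spread of Slc30a8 covered both of the others. Slc39a10 was the lowest at 5.39 ± 0.933 CPM per kb. In OE cells the same scale put the mean of Slc30a8 at 194 ± 11.6 CPM per kb, between Mt1 at 223 ± 49.9 and Slc39a7 at 174 ± 5.68 CPM per kb, and above Mt2 at 163 ± 37.4 CPM per kb. The spreads of Mt1 and Mt2 covered the means of both Slc30a8 and Slc39a7.

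**Figure D1:**
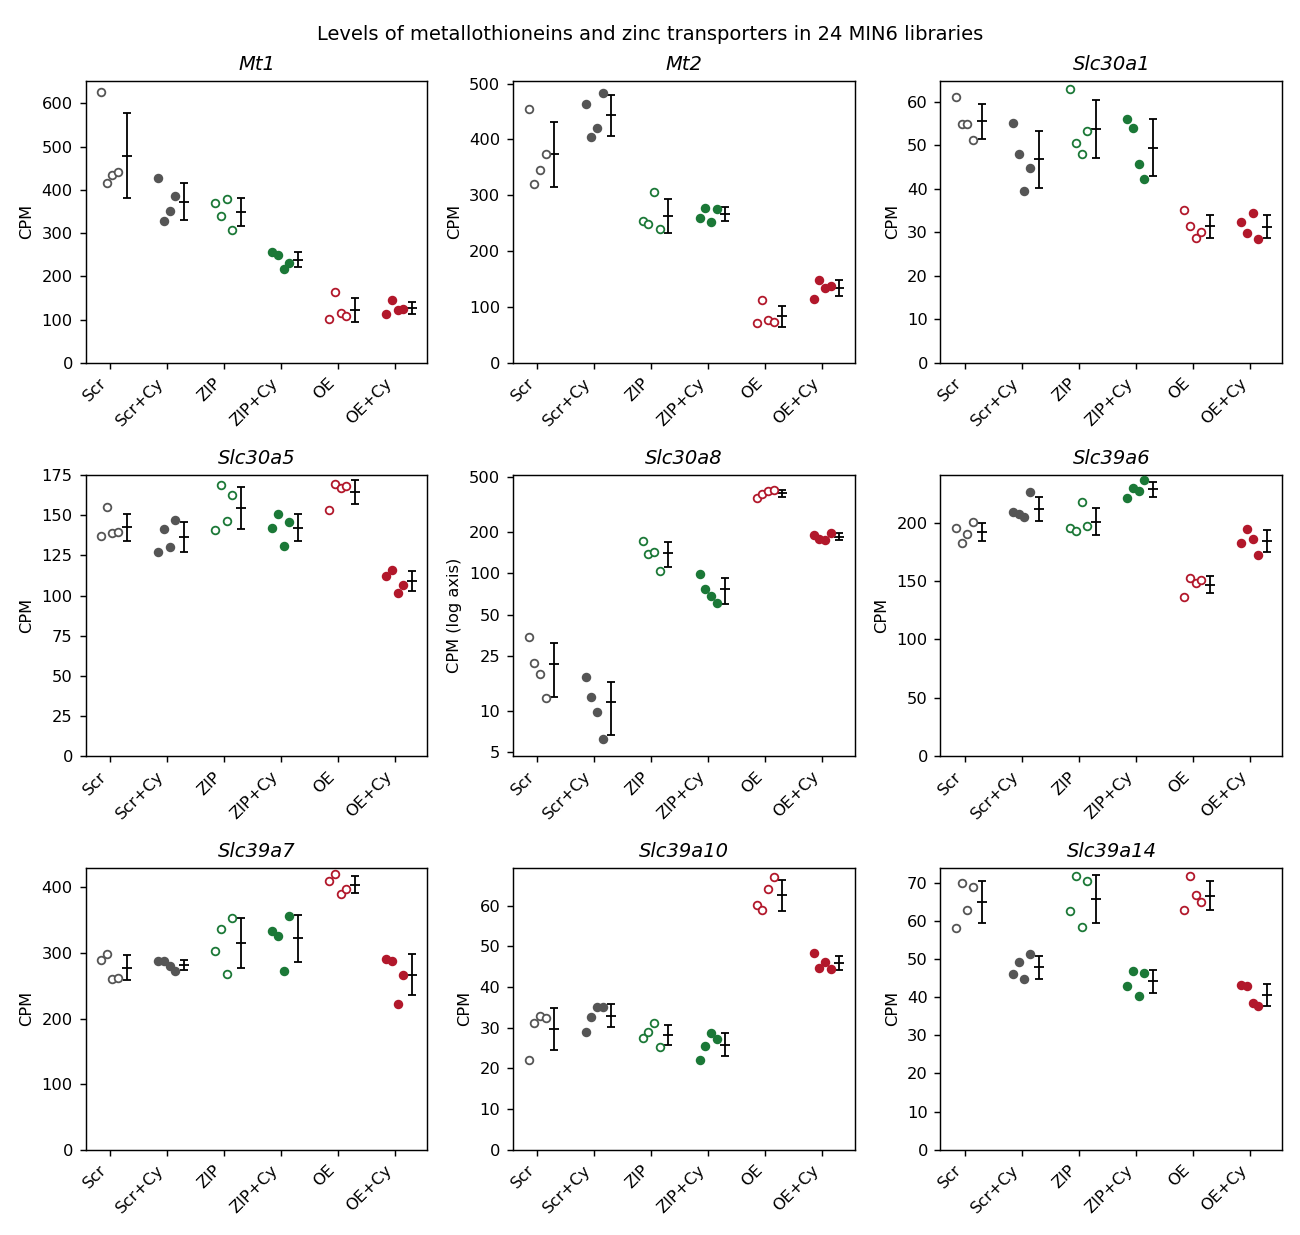
Level of each gene (y axis, CPM; a log axis for Slc30a8) in the 6 groups (x axis). Points are single libraries in the order of their replicate numbers, open without and filled with cytokines, and the black bar beside them is the mean ± SD of 4 libraries. The OE and OE+Cy libraries lie lowest for Mt1, Mt2 and Slc30a1 and highest for Slc30a8 and Slc39a10.

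The first question was how the untreated lines differed. In ZIP against Scr, 1 of the 9 genes was called, against 14.9% of all genes, and 3 had an adjusted p under 0.05, against 28.3% of all genes. In OE against Scr, 5 of the 9 were called, against 25.7% of all genes, and 8 had an adjusted p under 0.05, of which 4 rose and 4 fell, against 50.1% of all genes. The median log2 fold change of the 9 genes was 0.02 in ZIP and 0.04 in OE, and that of all genes 0.00 in either. Both comparisons use the same Scr libraries.

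Slc30a8 had the widest range of the 9 genes. Its levels were 34.3, 22.3, 18.6 and 12.4 CPM in the Scr libraries (replicates 1 to 4), 173, 138, 144 and 105 CPM in ZIP and 352, 378, 397 and 402 CPM in OE. The 3 lines did not overlap, with Scr lowest and OE highest, and the Scr libraries spread widely around their mean of 21.9 ± 9.23 CPM. The gene rose in ZIP (log2 fold change 2.67, SE 0.247, adjusted p = 7.53e-09) and in OE (log2 fold change 4.12, SE 0.260, adjusted p = 2.34e-12), by 6.37-fold and 17.4-fold in edgeR's quasi-likelihood test. Ins1, which encodes insulin, was also higher in both lines, at 674 ± 124 CPM in Scr, 1305 ± 103 CPM in ZIP and 7673 ± 809 CPM in OE. Ins2 stood at 10933 ± 2044, 14964 ± 724 and 18879 ± 938 CPM in the same order. In bulk RNA such as this, fewer cells that express a gene and less RNA per cell cannot be told apart. Of the 7 β cell markers, 6 rose in ZIP and Mafa, a transcription factor of the insulin gene, fell. In OE 4 rose (Ins1, Ins2, Iapp and Slc2a2) and 3 fell, namely the transcription factors Pdx1 (−0.39 on the log2 scale), Nkx6-1 (−0.60) and Mafa (−0.55). The part of these markers in the difference of Slc30a8 was not tested.

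The metallothioneins fell in both lines, and every OE library lay below every ZIP library. For Mt1 the libraries held 625, 415, 435 and 441 CPM in Scr, 369.7, 339, 378 and 307 CPM in ZIP and 102, 163, 116 and 109 CPM in OE. No library of ZIP or OE reached the lowest Scr library, and Scr replicate 1 lay far above the other 3. Mt1 fell in ZIP (log2 fold change −0.46, SE 0.131, adjusted p = 0.00974) and in OE (log2 fold change −1.97, SE 0.136, adjusted p = 1.32e-11). Without Scr replicate 1, the library with the highest Mt1 and the most fibroblast marker reads in its group, the difference in ZIP was −0.30 (adjusted p = 0.0667, against 0.00295 to 0.0667 over all alternatives).

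Mt2 had 455, 321, 346 and 374 CPM in Scr, 254, 249, 307 and 239.7 CPM in ZIP and 71.7, 112, 76.98 and 73.4 CPM in OE. The groups again did not overlap, and ZIP lay between the other two. The fall was 1.42-fold in ZIP (log2 fold change −0.51, SE 0.121, adjusted p = 0.00226) and 4.48-fold in OE (log2 fold change −2.16, SE 0.127, adjusted p = 6.19e-13). Together, Mt1 and Mt2 summed to 853 ± 155 CPM in Scr, 611 ± 58.3 CPM in ZIP and 206 ± 46.5 CPM in OE. Gcg was lower over the same lines, at 288 ± 55.5 CPM in Scr, 184 ± 87.9 CPM in ZIP and 41.4 ± 2.51 CPM in OE (−0.64 on the log2 scale in ZIP, adjusted p = 0.166, and −2.80 in OE, adjusted p = 5.89e-07), and its part in the fall of the metallothioneins was not tested.

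Slc30a1 encodes the exporter of the plasma membrane and is itself a known target of MTF1. It was read at 60.99, 54.8, 55.01 and 51.3 CPM in Scr, 63.05, 50.6, 47.9 and 53.3 CPM in ZIP and 35.1, 31.5, 28.8 and 30.03 CPM in OE. Every OE library was below every Scr and ZIP library, and Scr and ZIP overlapped. The gene fell in OE (log2 fold change −0.83, SE 0.104, adjusted p = 3.69e-07) and had a log2 fold change of −0.05 in ZIP (adjusted p = 0.777). Slc30a5 (chromosome 13, 100802648 to 100833427) rose slightly in OE, from 143 ± 8.34 to 164 ± 7.44 CPM (log2 fold change 0.21, SE 0.0644, adjusted p = 0.00973), and its libraries overlapped between the lines.

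Of the 4 importers, 2 rose and 1 fell in OE, and none passed in ZIP. Slc39a10, an importer of the plasma membrane, had 21.98, 31.2, 32.8 and 32.4 CPM in Scr and 60.1, 58.8, 63.98 and 66.97 CPM in OE. All OE libraries lay well above all Scr libraries, and ZIP, at 28.2 ± 2.43 CPM, overlapped with Scr. Slc39a10 (chromosome 1, 46807544 to 46925776) rose 2.11-fold in OE (log2 fold change 1.08, SE 0.0996, adjusted p = 2.32e-09). Slc39a7 (chromosome 17, 34028266 to 34031690) rose from 278 ± 18.8 to 404 ± 13.2 CPM (log2 fold change 0.54, SE 0.0870, adjusted p = 1.25e-05). Slc39a6 fell from 192 ± 7.41 to 147 ± 7.38 CPM (log2 fold change −0.39, SE 0.0516, adjusted p = 9.46e-07), below the 1.5-fold limit. Slc39a14, which imports zinc as well as manganese and iron and lies on chromosome 14 from 70303467 to 70351424, was level across the lines at 65.03 ± 5.52, 65.7 ± 6.41 and 66.6 ± 3.89 CPM, with adjusted p = 0.921 in ZIP and 0.729 in OE.

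**Figure D2:**
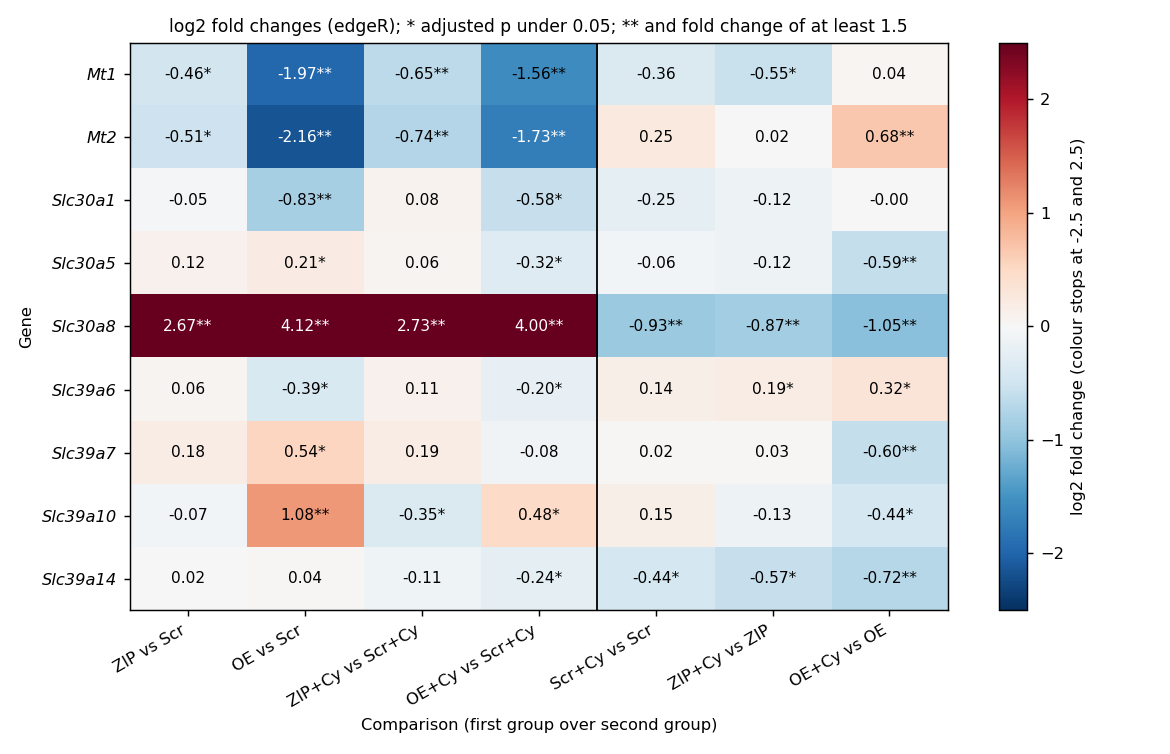
log2 fold change from edgeR (number and colour) of each gene (rows) in the 7 comparisons between 2 groups (columns), those between lines to the left of the black line and those with against without cytokines to its right. Slc30a8 was higher in ZIP and OE than in Scr, with and without cytokines, and lower with cytokines in each line, and Mt1 and Mt2 were lower in ZIP and OE than in Scr.

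The next question was how each line responded to cytokines. In Scr+Cy against Scr, 1 of the 9 genes was called (10.6% of all genes) and 2 fell at an adjusted p under 0.05 (17.8% of all genes in either direction). With the replicate number as a block within each line, 6 of the 9 passed there, against 28.8% of all genes. In ZIP+Cy against ZIP, 1 was called (12.5% of all genes), 3 fell and 1 rose (26.4%). In OE+Cy against OE, 5 were called (21.0% of all genes), 5 fell and 2 rose (44.6%). The median log2 fold change of the 9 genes was −0.06 in Scr, −0.12 in ZIP and −0.44 in OE, and that of all genes 0.00, −0.01 and 0.02.

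Slc30a8 (chromosome 15, 52295553 to 52335798) fell with cytokines in each line. It was read at 17.6, 12.5, 9.78 and 6.25 CPM in Scr+Cy, 99.5, 76.7, 68.3 and 60.97 CPM in the ZIP+Cy libraries and 191, 178, 175 and 197 CPM in OE+Cy. The treated ZIP and OE libraries lay below all untreated libraries of their line, and the treated and untreated Scr libraries overlapped. The gene fell in Scr (log2 fold change −0.93, SE 0.256, adjusted p = 0.0124), in ZIP (log2 fold change −0.87, SE 0.230, adjusted p = 0.00615) and in OE (log2 fold change −1.05, SE 0.227, adjusted p = 5.34e-04). Replicate numbers pair the treated and untreated libraries of a line, and by number the treated library held 0.506 to 0.562 of the untreated level in Scr, 0.475 to 0.581 in ZIP and 0.439 to 0.542 in OE. With the number as a block within each line, the adjusted p of Slc30a8 in Scr+Cy was 3.11e-09. Without the block, it was 0.0890 without Scr replicate 1, where the log2 fold change shrank to −0.62, and 0.0511 without Scr+Cy replicate 4, where it was −0.72. In a fit of those groups alone the log2 fold change was −0.91 and the adjusted p 0.0860. Over all alternatives the log2 fold change lay between −1.21 and −0.62. Over the same treatment, the summed β cell markers were lower in ZIP+Cy and OE+Cy than in the untreated libraries of those lines and overlapped between Scr+Cy and Scr. The sum covers genes that went apart. Iapp, the islet amyloid peptide, rose with cytokines in Scr (0.45 on the log2 scale) and ZIP (0.35) and had a log2 fold change of −0.01 in OE (adjusted p = 0.913), while 2 of the other markers fell in Scr, 3 in ZIP and 6 in OE. Their part in the fall of Slc30a8 was not tested.

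Slc39a14 fell in each line too, with no overlap between treated and untreated libraries. Untreated libraries held 58.2, 70.03, 62.9 and 68.97 CPM in Scr and treated ones 46.005, 49.2, 44.7 and 51.4 CPM. In OE the values were 62.7, 71.9, 66.9 and 64.97 CPM without and 43.2, 42.9, 38.5 and 37.7 CPM with cytokines. ZIP lay between them, from 65.7 ± 6.41 to 44.2 ± 3.07 CPM. The log2 fold change was −0.44 ± 0.0747 (SE) in Scr (adjusted p = 9.77e-05), −0.57 ± 0.0753 in ZIP (adjusted p = 2.44e-06) and −0.72 ± 0.0752 in OE (adjusted p = 3.41e-08). The fold change reached 1.5 in OE, at 1.64, and was 1.36 in Scr and 1.49 in ZIP.

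Slc39a6 was higher with cytokines in every pair of libraries of equal number. It stood at 136, 152, 148 and 151 CPM in OE and 183, 195, 186 and 172 CPM in OE+Cy, which did not overlap. It rose in OE (log2 fold change 0.32, SE 0.0516, adjusted p = 1.42e-05) and in ZIP (log2 fold change 0.19, SE 0.0515, adjusted p = 0.00876), while Scr+Cy had a log2 fold change of 0.14 and an adjusted p of 0.0609, or 0.0169 with the replicate block within each line.

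The metallothioneins went apart under cytokines. Mt1 was 427, 327, 350.5 and 387 CPM in Scr+Cy, 256, 249, 218 and 229.96 CPM in ZIP+Cy, and in OE+Cy 114, 145, 121 and 125 CPM. All ZIP+Cy libraries lay below all ZIP libraries, and Mt1 fell in ZIP (log2 fold change −0.55, SE 0.132, adjusted p = 0.00285). In Scr it had a log2 fold change of −0.36 (adjusted p = 0.0595, or 4.63e-04 with the replicate block within each line), and in OE one of 0.04 (adjusted p = 0.833).

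Mt2 was 464, 405, 421 and 484 CPM in Scr+Cy, 259, 277, 252 and 276 CPM in ZIP+Cy, and in OE+Cy 114, 148, 134 and 137 CPM. Every OE+Cy library was above every OE library, and Mt2 rose 1.60-fold in OE (log2 fold change 0.68, SE 0.123, adjusted p = 7.37e-05). In Scr, Mt2 had a log2 fold change of 0.25 (adjusted p = 0.176, or 0.0178 with the replicate block within each line), and in ZIP one of 0.02 (adjusted p = 0.946).

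The ratio of Mt1 to Mt2 within a library, a measure that depth and scaling do not enter, was computed after these values had been seen. It was 1.37, 1.29, 1.26 and 1.18 in Scr and 0.922, 0.808, 0.832 and 0.800 in Scr+Cy. In ZIP it was 1.45, 1.36, 1.23 and 1.28 without and 0.988, 0.901, 0.863 and 0.833 with cytokines. In OE it was 1.43, 1.45, 1.51 and 1.48 without and 0.998, 0.979, 0.900 and 0.908 with cytokines. All 12 untreated libraries had a higher CPM for Mt1 than for Mt2, and all 12 treated libraries a lower one. Mean ratios went from 1.28 ± 0.0801 to 0.840 ± 0.0560 in Scr, from 1.33 ± 0.0976 to 0.896 ± 0.0672 in ZIP and from 1.47 ± 0.0348 to 0.946 ± 0.0493 in OE (SD, n = 4). In each line the two-sided exact permutation test gave p = 0.0286, the smallest that 4 against 4 unpaired libraries allow, and 0.05 after adjustment over the 7 comparisons. The test left out the pairing of these libraries by replicate number, and no paired test of the ratio was run. The untreated OE ratio was also above that of Scr without overlap (exact permutation p = 0.0286, or 0.05 adjusted), and the ratios of ZIP and Scr overlapped (exact permutation p = 0.429). With cytokines, the ratios of OE+Cy and Scr+Cy overlapped (exact permutation p = 0.0857, or 0.12 adjusted), as did those of ZIP+Cy and Scr+Cy (exact permutation p = 0.229, or 0.267 adjusted). Adjusted values of 0.05 lie at the threshold and not under it.

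**Figure D3:**
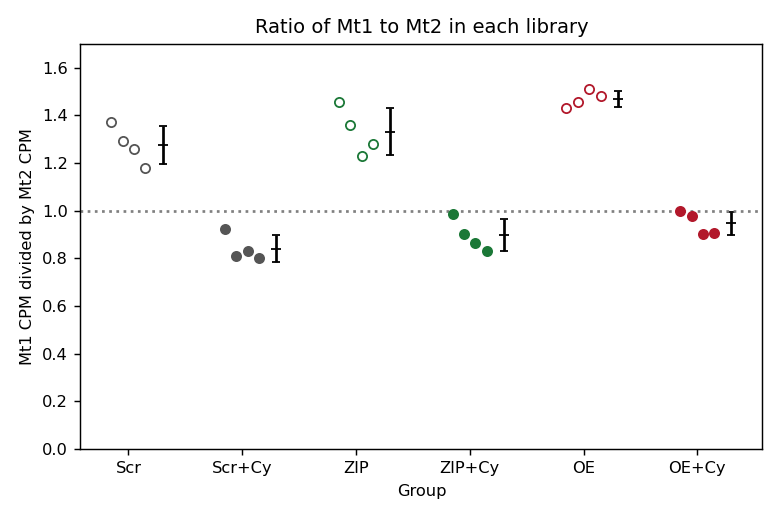
Ratio of Mt1 to Mt2 CPM (y axis) in each library of the 6 groups (x axis). Points are libraries, open without and filled with cytokines, black bars are the mean ± SD of 4 libraries, and the dotted line marks equal levels. All open points lie above the line and all filled points below it.

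Slc30a1 did not pass the threshold in any line. It had 46.8 ± 6.52 CPM in Scr+Cy (adjusted p = 0.103, or 0.00907 with the replicate block within each line), 49.5 ± 6.61 CPM in ZIP+Cy (adjusted p = 0.438) and 31.3 ± 2.61 CPM in OE+Cy (adjusted p = 1.00).

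Slc30a5, Slc39a7 and Slc39a10, described together after their values had been seen, fell with cytokines in OE. Slc30a5 went from 153, 169, 167 and 168 CPM in OE to 112, 116, 102 and 107 CPM in OE+Cy, with no overlap (log2 fold change −0.59, SE 0.0648, adjusted p = 6.97e-08). Its fold change of 1.51 was at the edge of the 1.5-fold rule. Slc39a7 went from 409, 419.7, 389 and 398 CPM to 290.2, 288, 222 and 267 CPM, again with no overlap (log2 fold change −0.60, SE 0.0871, adjusted p = 4.27e-06), and fell short of 1.5-fold without OE replicate 2 (log2 fold change −0.57) or without OE+Cy replicate 3 (−0.53). Slc39a10 had 48.4, 44.6, 46.1 and 44.4 CPM in OE+Cy, all below the OE libraries (log2 fold change −0.44, SE 0.0980, adjusted p = 6.18e-04). In Scr and ZIP the adjusted p of these 3 genes lay between 0.194 and 0.909. The responses of OE and ZIP were not tested against each other.

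**Figure D4:**
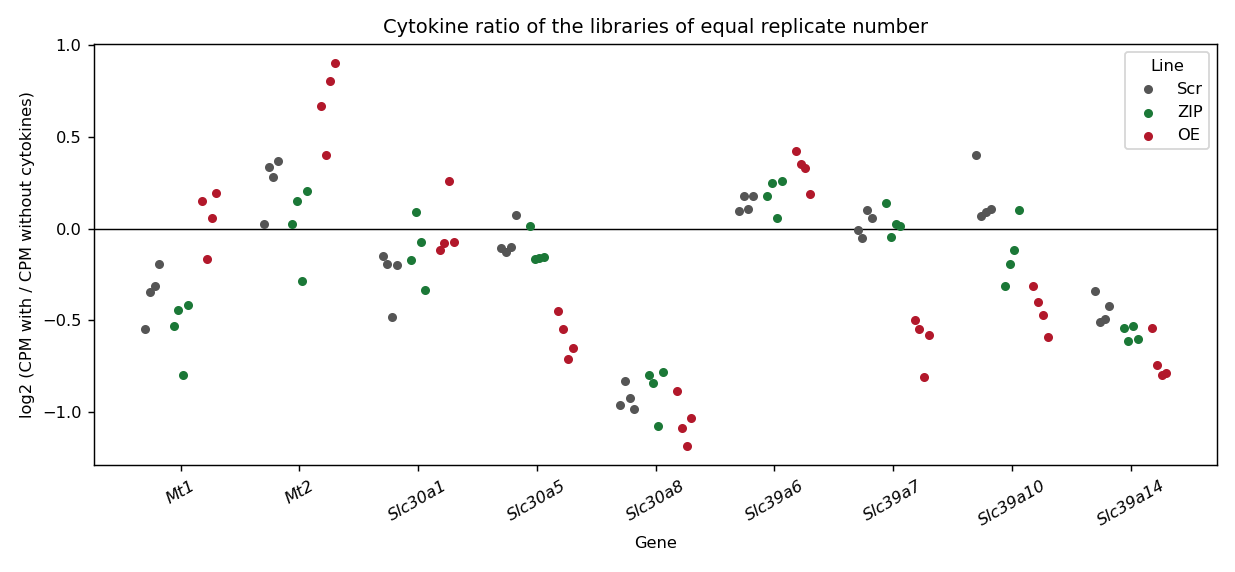
log2 ratio of the CPM with cytokines to the CPM without (y axis) for each gene (x axis), for the 4 pairs of libraries of equal replicate number in each line (colour). All points of Slc30a8 and Slc39a14 lie below 0 and all of Slc39a6 above it, and for Slc30a5 and Slc39a7 the OE points lie below those of the other lines.

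Whether a line's cytokine response differed from that of Scr was tested directly, as an interaction in the same model with an adjusted p under 0.05. For OE, 3 of the 9 genes passed, against 20.0% of all genes. Their responses were lower in OE than in Scr by −0.53 ± 0.0913 (SE) on the log2 scale for Slc30a5 (adjusted p = 2.55e-04), −0.62 ± 0.123 for Slc39a7 (adjusted p = 8.56e-04) and −0.60 ± 0.140 for Slc39a10 (adjusted p = 0.00359). With the replicate number as a block within each line, 7 of the 9 passed, against 31.8% of all genes, and Mt1 (0.41, adjusted p = 0.00251), Mt2 (0.44, adjusted p = 0.00500), Slc39a6 (0.18, adjusted p = 0.0242) and Slc39a14 (−0.28, adjusted p = 0.00246) joined them. Slc30a8 had a difference of −0.12 ± 0.341 (adjusted p = 0.869). For ZIP, edgeR called 0 of the 9 genes, against 0.0565% of all genes. No gene of the 9 was under 0.05 without adjustment (the smallest p was 0.0605, for Slc39a10), and DESeq2 and the block called 0 as well.

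The last comparison set the lines side by side under cytokines. In ZIP+Cy against Scr+Cy, 3 of the 9 genes were called (15.8% of all genes), 1 rose and 3 fell (28.1%). With the replicate number, which pairs these libraries, as a block, 5 of the 9 passed, against 32.9% of all genes. The fifth was Slc39a7 (log2 fold change 0.19, adjusted p = 0.0320, against 0.106 without the block), which also passed without ZIP+Cy replicate 3 (0.26, adjusted p = 0.0246), and Slc39a6 (0.11, adjusted p = 0.120) passed with DESeq2 alone (0.12, adjusted p = 0.0426). In OE+Cy against Scr+Cy, 3 were called (28.5% of all genes), 2 rose and 6 fell (53.4%). Slc30a8 stayed far higher in ZIP+Cy (log2 fold change 2.73, SE 0.257, adjusted p = 1.09e-08) and OE+Cy (log2 fold change 4.00, SE 0.266, adjusted p = 6.45e-12). Mt1 fell in ZIP+Cy (log2 fold change −0.65, SE 0.132, adjusted p = 5.39e-04) and OE+Cy (log2 fold change −1.56, SE 0.135, adjusted p = 6.90e-10). Mt2 fell by 1.67-fold in ZIP+Cy (adjusted p = 4.46e-05) and 3.32-fold in OE+Cy (adjusted p = 2.74e-11). The summed metallothionein level was 816 ± 76.5 CPM in Scr+Cy against 504 ± 24.4 CPM in ZIP+Cy, and in OE+Cy it was 259.7 ± 26.7 CPM.

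Among the transporters in OE+Cy, Slc30a1 was lower, with a log2 fold change of −0.58 ± 0.104 (SE, adjusted p = 5.03e-05) and Slc39a10 higher by 0.48 ± 0.0996 (adjusted p = 2.68e-04). Slc39a7, which was higher in OE than in Scr, stood at 267 ± 31.3 CPM in OE+Cy and 282 ± 7.36 CPM in Scr+Cy (adjusted p = 0.456). Slc30a5, which was slightly higher in OE, was lower in OE+Cy (log2 fold change −0.32, SE 0.0648, adjusted p = 1.93e-04). Slc39a14 (−0.24, adjusted p = 0.0104) and Slc39a6 (−0.20, adjusted p = 0.00191) were lower in OE+Cy by small amounts. In ZIP+Cy, Slc39a10 was lower than in Scr+Cy (log2 fold change −0.35, SE 0.102, adjusted p = 0.0110), below the 1.5-fold limit. It no longer passed without ZIP+Cy replicate 1 (adjusted p = 0.0645, against 0.00115 to 0.0645 over all alternatives).

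Related genes were read from lists of 44, of which 20 are other zinc transporters and zinc-binding or vesicle genes (16 in the table) and 24 belong to the response to metals and stress, to iron and manganese handling or to the IL-6 and STAT3 axis (23 in the table). In OE against Scr, where 50.1% of all genes passed, all 5 other SLC30 genes in the table had an adjusted p under 0.05, 4 higher and 1 lower. One of the 4 was Slc30a3, which had 0 reads in all Scr libraries and 1 to 5 reads in those of OE, so that its call rests on a few reads. Of the 9 other SLC39 genes, 3 rose and 2 fell, a share near that of all genes. In ZIP against Scr, where 28.3% of all genes passed in either direction, 2 of the 5 SLC30 genes and 1 of the 9 SLC39 genes rose. Slc30a4, which loads endosomes and vesicles with zinc, had 104 ± 4.16 CPM in Scr, 152 ± 12.4 CPM in ZIP and 209.5 ± 26.7 CPM in OE, and rose in ZIP (log2 fold change 0.55, SE 0.130, adjusted p = 0.00234) and OE (log2 fold change 1.01, SE 0.130, adjusted p = 5.83e-07). Slc30a7, an exporter of the Golgi that shares the early secretory pathway with Slc30a5, went from 79.2 ± 3.92 CPM to 109.7 ± 13.3 CPM in ZIP and 137 ± 7.39 CPM in OE (log2 fold change 0.79, SE 0.0873, adjusted p = 4.92e-08).

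Slc39a8, an importer of zinc and manganese closely related to Slc39a14, fell most among the SLC39 genes. It was read at 501, 590.2, 562 and 559 CPM in Scr, 95.7, 112, 108 and 108 CPM in OE and 42.1, 34.3, 19.6 and 25.9 CPM in OE+Cy. These 3 groups did not overlap, and ZIP (481 ± 26.1 CPM) stayed near Scr. It fell in OE (log2 fold change −2.38, SE 0.138, adjusted p = 5.23e-13) and again with cytokines in OE (log2 fold change −1.80, SE 0.139, adjusted p = 1.81e-10), and the cytokine response differed from that of Scr (interaction −1.59, adjusted p = 5.18e-06). Slc39a11 had 12.3 ± 2.25 CPM in Scr and 45.4 ± 3.91 CPM in OE (log2 fold change 1.88, SE 0.151, adjusted p = 2.00e-10). Slc39a1, an importer of the plasma membrane, rose with cytokines in Scr (log2 fold change 0.61, SE 0.0572, adjusted p = 1.13e-08), ZIP (log2 fold change 0.70, adjusted p = 1.07e-09) and OE (log2 fold change 0.96, adjusted p = 1.35e-12). Mt3, the metallothionein best known from the brain, stood at 75.5 ± 10.4 CPM in Scr, 31.3 ± 4.85 CPM in OE and 15.1 ± 4.08 CPM in OE+Cy, and fell in OE (log2 fold change −1.27, SE 0.163, adjusted p = 5.31e-07). Tmem163, a zinc-binding protein of vesicles, rose in OE (log2 fold change 0.72, SE 0.152, adjusted p = 3.09e-04).

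**Figure D5:**
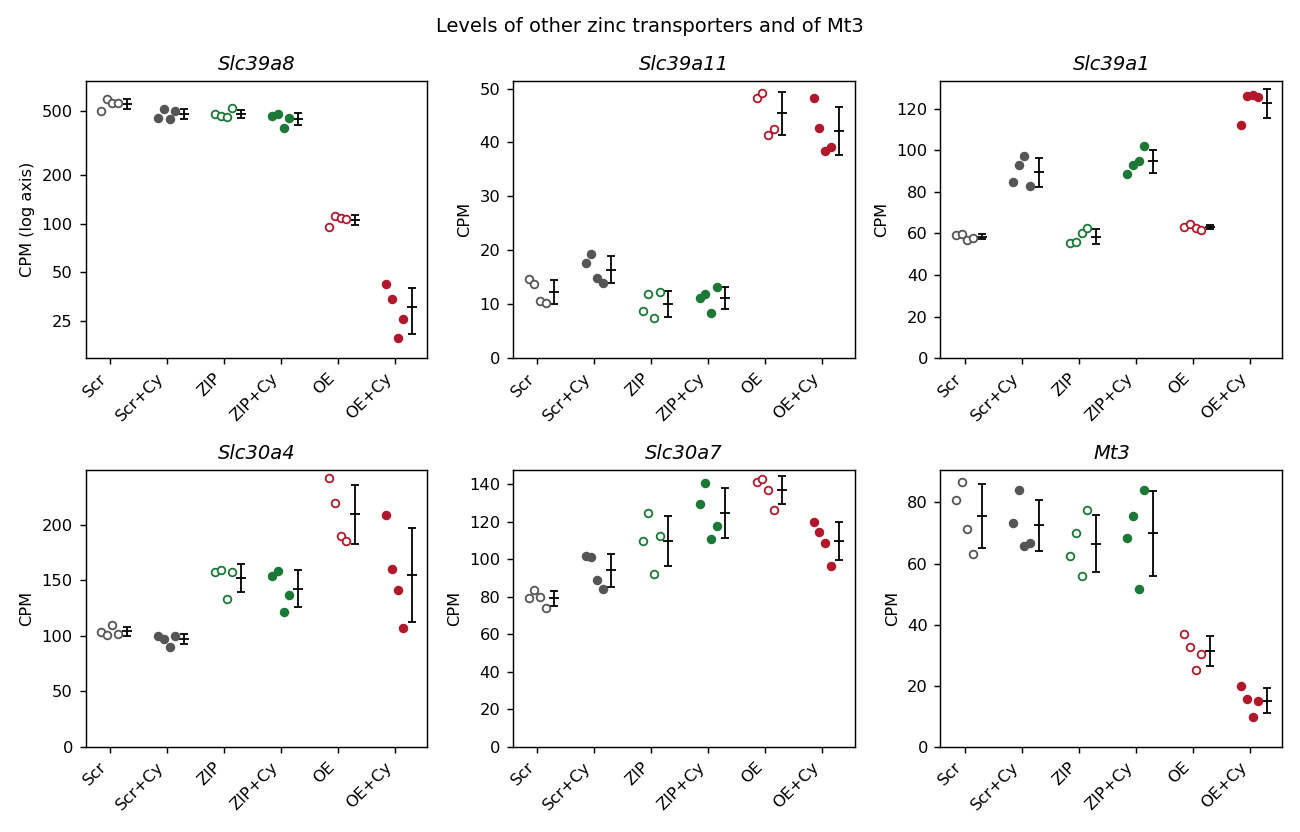
Level (y axis, CPM; a log axis for Slc39a8) of 5 other zinc transporters and of Mt3 in the 6 groups (x axis). Points are single libraries, open without and filled with cytokines, and black bars are the mean ± SD of 4 libraries. Slc39a8 and Mt3 are lowest in OE+Cy, Slc39a11 is highest in OE and OE+Cy, and Slc39a1 is higher with cytokines in each line.

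Of the 5 genes listed for the response to metals and stress, 4 had an adjusted p under 0.05 in OE against Scr (50.1% of all genes), 1 higher and 3 lower. The higher one was Gclc, at 24.8 ± 1.22 CPM in Scr, 33.7 ± 3.29 CPM in ZIP and 41.02 ± 1.82 CPM in OE. Mtf1, the gene of MTF1, did not pass and stood at 48.8 ± 3.99, 52.1 ± 2.07 and 44.97 ± 0.523 CPM in the same order. Hmox1, which breaks down haem, had 67.4 ± 9.89 CPM in Scr and 22.1 ± 5.88 CPM in OE (log2 fold change −1.60, SE 0.167, adjusted p = 1.84e-08), and rose with cytokines in OE (log2 fold change 2.02, SE 0.169, adjusted p = 7.20e-10). Its level was also higher with cytokines in the other lines, at 107 ± 16.5 CPM in Scr+Cy, and at 98.5 ± 15.6 CPM in ZIP+Cy against 41.7 ± 8.17 CPM in ZIP. The heat shock genes Hspa1a and Hspa1b, near-identical copies whose reads could have been divided between them, fell in OE by −2.09 ± 0.341 and −1.63 ± 0.276 (SE) on the log2 scale (adjusted p = 1.51e-05 and 2.47e-05). In ZIP they rose by 1.29 ± 0.301 and 0.96 ± 0.254 (adjusted p = 0.00198 and 0.00578).

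Among the 11 genes of iron and manganese handling, 3 passed with cytokines in Scr (17.8% of all genes), 5 in ZIP (26.4%) and 6 in OE (44.6%), so that the count went up together with the share of all genes. Slc11a2, the divalent metal importer DMT1, went from 25.1 ± 4.10 to 91.3 ± 18.5 CPM in Scr (log2 fold change 1.86, SE 0.130, adjusted p = 5.10e-11) and from 36.4 ± 0.912 to 169 ± 26.1 CPM in OE (log2 fold change 2.22, SE 0.129, adjusted p = 8.98e-13). Cp, the copper-binding ferroxidase ceruloplasmin, rose from 0.725 ± 0.666 to 10.4 ± 3.40 CPM in Scr (log2 fold change 3.80, SE 0.488, adjusted p = 2.08e-06). Hamp, which encodes the iron hormone hepcidin, was at 2 reads or fewer in every library but those of OE+Cy, where it had 2.06 ± 0.509 CPM from 47 to 80 reads. Of 7 genes of the IL-6 and STAT3 axis in the table, 4 rose with cytokines in Scr, 4 in ZIP and 5 in OE, against the same shares of all genes, which count both directions. Stat3, the transcription factor of that pathway, went from 107 ± 11.2 to 395 ± 37.2 CPM in Scr and from 113 ± 2.42 to 471 ± 13.4 CPM in OE (log2 fold change 2.06, adjusted p = 3.82e-16). Lcn2, an iron-sequestering protein, had 0.263 ± 0.245 CPM in Scr against 39.2 ± 16.7 CPM in Scr+Cy, and Lif, a cytokine of the IL-6 family, 0.186 ± 0.0738 CPM in OE and 21.3 ± 3.57 CPM in OE+Cy. Lif was also higher with cytokines in Scr, from 0.368 ± 0.0767 to 2.14 ± 0.404 CPM, and in ZIP, from 0.126 ± 0.102 to 1.88 ± 0.508 CPM.

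Over the 24 libraries, the log2 levels most like those of Mt1 by Pearson's r, among 9738 genes averaging at least 10 CPM, were of Cbfa2t3 (0.976), Timp2 (0.973) and Gipc1 (0.967). Those nearest Mt2 were Slc41a1 and Sdc3 (both 0.977) and Dnase2a (0.972). For Slc30a8 they were Gnb5 (0.979), Pcdh17 (0.972) and Slc17a5 (0.967), and for Slc39a14 Ppp2r5c (0.955), Slc7a8 (0.936) and Scrt1 (0.933). Between members, r was 0.93 for Mt1 with Mt2, 0.87 for Mt1 with Slc30a1 and −0.88 for Mt2 with Slc30a8. The libraries share 6 group means, so these values describe mostly the differences between groups.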

How the data were processed

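The 24 libraries were assigned to 6 groups of 4, with replicate numbers, from their own titles. By the study's methods, STAR aligned the reads to mm10 and Partek Flow counted them over RefSeq transcripts (the submitters' processing notes name STAR 2.7.8a and Partek 11.0.24.0204), and the use of strand is not given in the sources used here. The table the authors deposited holds unnormalized estimated counts for each gene. It had 30.3% of its values off a whole number, and rounding was done here. A second deposited table of normalized values was not used.

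All 17696 genes, each with at least 10 reads in total, entered one edgeR 4.0.16 model (R 4.3.3) with 6 group means and TMM scaling, tested with glmQLFit and glmQLFTest. Each SE was taken as the absolute log2 fold change over the root of the F statistic. p-values were Benjamini-Hochberg adjusted over all genes. The SLC30, SLC39, metal, iron, IL-6 and marker lists and the members were chosen with earlier results of these data known. From each list of related genes the text names up to 3 genes with a mean of at least 1 CPM in some group and the largest log2 fold change among those called in any comparison, and the genes most like a member. Slc30a3, Gclc and Mtf1 are named beside these. Ratios were tested with exact permutation tests that took the libraries as unpaired (SciPy 1.17.1).

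Replicate numbers, which the labels share, were taken to pair libraries where the deviations from the group means correlated above 0.1 for every number over 9738 genes. This held between the untreated and treated libraries of each line (0.279 to 0.612) and between ZIP+Cy and Scr+Cy (0.163 to 0.467), not in the other comparisons of lines (lowest −0.107). Alternatives were DESeq2 1.42.0, its size factors, filterByExpr (14535 genes), a fit of only the groups compared, replicate blocks, other call rules and leaving out each library. Depth was 26657792 to 37168232 assigned reads per library, and the lowest count of the 9 genes in any library was 208 reads (Slc30a8 in Scr+Cy).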

Additional observations from a re-analysis of the deposited data

Results flagged for a closer look

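A library far from the other 3 of its group was looked for in the 54 combinations of the 9 genes and 6 groups with Dixon's test at its 95% level, which chance passes in about 1 of 20 groups, and 5 combinations passed. They were Mt1 in Scr replicate 1 (625 CPM), Mt2 in OE replicate 2 (112 CPM), Slc30a5 in Scr replicate 2 (155 CPM) and in OE replicate 1 (153 CPM), and Slc39a10 in Scr replicate 1 (22.0 CPM). Scr replicate 1 also had the highest Slc30a8 (34.3 CPM) of its group and the highest sum of fibroblast markers (14.8 CPM), and the part of the latter in these values was not tested.

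The cytokine response differed between OE and Scr cells, by the interaction test, for Slc30a5 (−0.53 on the log2 scale), Slc39a7 (−0.62) and Slc39a10 (−0.60).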

How the results depend on the processing

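All 81 results (9 genes in 9 comparisons) were recomputed under every alternative, except that the replicate block within each line bears on the cytokine comparisons and interactions alone, and 2382 of 2475 values kept their direction and their side of the call rule. Of the others, 33 became called, 15 lost the call and 45, of 14 results, changed sign. No result that changed sign was called or had an adjusted p under 0.05 in the reported model, and none was called in the alternative.

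The count of members with an interaction in OE was 3 as reported (20.0% of all genes) and 7 with the replicate block within each line (31.8%). It was 5 with DESeq2, 7 at an unadjusted p under 0.05 and 3 to 6 when each library was left out in turn. The count was 5 without Scr replicate 2, 6 without OE replicate 2 and 5 without OE+Cy replicate 1. For DESeq2, the unadjusted rule and the fits with libraries left out, here and below, the share of all genes was not computed. Those counts therefore show only how far the calls moved. Leaving out each library gave 1 to 2 called members in ZIP+Cy against ZIP, 3 to 5 in OE+Cy against OE (3 without OE replicate 2 or OE+Cy replicate 3), 1 to 2 in ZIP against Scr and 3 to 4 in OE+Cy against Scr+Cy, where Slc30a1 (1.49-fold as reported) passed 1.5-fold without replicate 3 or 4 of Scr+Cy or 1 or 3 of OE+Cy. The second call was of Mt1 or Slc39a14 in ZIP+Cy, without replicates 1, 3 or 4 of ZIP or 1, 2 or 4 of ZIP+Cy, and of Mt2 in ZIP, without ZIP replicate 3. Of the 39 related genes, the interaction in OE held for 14 (20.0% of all genes), and for 24 with the block within each line (31.8% of all genes). That in ZIP held for 0 (0.0565% of all genes), with 2 under the block (1.21% of all genes). At an unadjusted p under 0.05 it held for 5, and the share of all genes at that rule was not computed. The block within each line was added after seeing the data. Apart from the calls given with the results, it changed none, and numbers that did not pair libraries between lines added Slc39a7 in ZIP against Scr (adjusted p = 0.0389) as a block.

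Slc30a5 in OE+Cy against OE fell short of 1.5-fold with DESeq2, with its size factors, with filterByExpr and without any of 9 single libraries, at −0.57 to −0.58, since its fold change lies at the limit, and Mt1 in ZIP+Cy against Scr+Cy without Scr+Cy replicate 1 (−0.58). Of the values that changed sign, those of Slc30a1 in OE+Cy against OE were 0.00368 with DESeq2, 0.00366 with its size factors, 0.00350 with filterByExpr and 0.00436 with the replicate block, and −0.063 to 0.056 with libraries left out. Leaving out each library gave log2 fold changes for Slc39a7 of −0.0034 to 0.0587 in Scr+Cy against Scr, −0.043 to 0.106 in ZIP+Cy against ZIP, −0.12 to 0.0059 in OE+Cy against Scr+Cy and −0.050 to 0.082 in the interaction of ZIP. For Mt2 in ZIP+Cy against ZIP they were −0.022 to 0.097 and for Mt1 in OE+Cy against OE −0.044 to 0.22. In ZIP against Scr they were −0.13 to 0.0067 for Slc30a1, −0.19 to 0.0057 for Slc39a10 and −0.034 to 0.074 for Slc39a14, which gave −0.014 to 0.073 in OE against Scr. The interaction in ZIP was −0.098 to 0.0042 for Slc30a5 and −0.25 to 0.34 for Slc30a8, and that in OE −0.43 to 0.17 for Slc30a8. The cause of these shifts was not tested beyond the smaller number of libraries.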
